A study of Mus musculus with 6 samples.

Results

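Thin limb cells of the mouse kidney were taken from single-cell libraries of 3 sham mice and 3 DOCA-salt mice, and 872 of 76774 barcodes met the rule. A barcode was a member when it had at least 1000 unique molecular identifiers (UMIs, 1 per captured RNA molecule), at most 50% mitochondrial UMIs, and at least 3 of the 6 markers Epha7, Slc14a2, Fst, Bst1, Sptssb and Cryab. It also had at most 0.2% of its UMIs from Lrp2, Slc34a1, Slc5a12 and Slc22a6 together, at most 2 UMIs of Slc12a1 and of Aqp2, and 0 UMIs of Ptprc, Pecam1 and Col1a1. The members were 177, 178 and 162 in the sham mice and 143, 125 and 87 in the DOCA-salt mice, of 50910 barcodes within the UMI and mitochondrial limits.

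All mice were male C57BL/6 and entered the study at 8 to 10 weeks of age. DOCA-salt mice lost the left kidney 1 week before they received a 50 mg pellet of deoxycorticosterone acetate (DOCA), a precursor of aldosterone that acts on the mineralocorticoid receptor, and they drank 1% NaCl for 21 days. The sham mice had sham surgery, normal drinking water and no pellet, so the effects of nephrectomy and of DOCA-salt cannot be told apart. Whole kidneys were digested with collagenase, passed through a strainer and loaded on the 10x 3′ platform, with 1 library per mouse. In the study the libraries served to sort kidney cells into clusters, among them 1 of the descending limb of the loop of Henle, and to compare cluster proportions. They also served to look at receptor genes for ATP and adenosine across kidney cells. In macrophages the study looked at changed genes, their pathways and inflammasome genes.

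The thin limbs are the narrow, flat-walled parts of the loop of Henle, which runs from the cortex into the medulla and back. The descending thin limb lets water leave through aquaporin-1 (Aqp1), and in part takes up urea through the transporter encoded by Slc14a2. The ascending thin limb is tight to water. Together with the thick ascending limb and the collecting duct they form the countercurrent system that concentrates urine.

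A member held a median of 9901 to 17964 UMIs per mouse and a median of 5.29% to 9.55% mitochondrial UMIs, with the sham and DOCA-salt ranges overlapping for both. Summed over the members, a mouse gave 1433173 to 3008406 UMIs. Libraries shared 33 to 69 cell barcodes per pair, and no library was left out. Levels are in CPM, a gene's UMIs per 1000000 UMIs summed over a mouse's cells, with mouse 1, 2 and 3 of each group given in that order.

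The levels of the 6 markers chose the members and are given as a description. Cryab, a small heat shock protein, had a mean of 6472 CPM, against 119 CPM in thick ascending limb cells and 736 CPM in principal cells of the collecting duct. The mean level of the urea transporter gene Slc14a2 was 1623 CPM, with 2871, 1726 and 1938 CPM in the sham mice and 1251, 833 and 1119 CPM in the DOCA-salt mice. For Fst, which encodes the activin-binding protein follistatin, the levels ran the other way, with 304, 191 and 243 CPM in the sham mice and 572, 872 and 457 CPM in the DOCA-salt mice. Neither gene's groups overlapped, as was so for 21.1% of the 11541 genes compared between the groups outside the rule. Bst1, an ectoenzyme that acts on NAD, was flat, between 654 and 713 CPM in all mice. Epha7, a receptor for ephrins, lay between 115 and 268 CPM and Sptssb, a subunit of serine palmitoyltransferase, between 16.0 and 77.9 CPM.

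The label was checked with genes outside the rule. Aqp1, the water channel of the descending thin limb, had 2899, 3177 and 2857 CPM in the sham members and 2339, 2426 and 2081 CPM in the DOCA-salt members, against a mean of 131 CPM in proximal tubule cells, which also use it. The members were therefore rich in a gene of the descending limb, and the check covers that limb alone. With every cell thinned to 1000 UMIs, 63.0% ± 1.63 (SD, n = 3) of the sham members and 61.6% ± 4.30 (n = 3) of the DOCA-salt members had a UMI of Aqp1 (two-sided exact permutation test, p = 0.8). The smallest p that 3 mice against 3 allow is 0.1. Without thinning these shares were 73.5% and 75.4%, so the sign of the difference turned. In thick ascending limb cells, which should lack Aqp1, 1.17% to 2.75% of cells had a UMI after thinning in the sham mice.

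Genes of other tubule segments were also found in the members. Umod, the uromodulin gene of the thick ascending limb, had 207 to 372 CPM in the members, against a sham mean of 15246 CPM in thick ascending limb cells, and Kap, a proximal tubule gene, had 500 to 2268 CPM. In proximal tubule cells Kap had 3572 to 15021 CPM, and in thick ascending limb cells 553 to 2293 CPM. In sham mouse 3 the members held more Kap (2268 CPM) than Slc14a2 (1938 CPM).

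**Figure D1:**
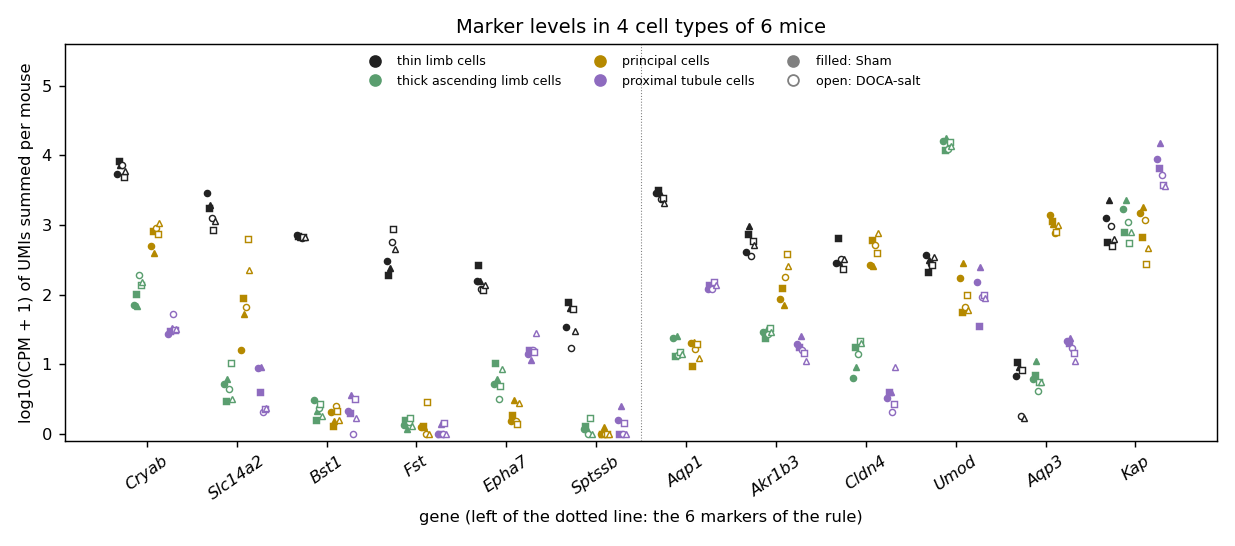
Levels of the 6 markers of the rule (left of the dotted line) and of 6 other genes in thin limb, thick ascending limb, principal and proximal tubule cells, on a log10(CPM + 1) scale, 1 point per mouse and cell type. Aqp1, which the rule did not use, lies at 2081 to 3177 CPM in thin limb cells and at 151 CPM or less in the other 3 types.

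Of the 3916 genes with at least 50 CPM on average in the members, 71 had more than 10 times the level of all other eligible cells. The comparison is a description, because the members were chosen by expression. Lypd2 stood first with 288 CPM and a ratio of 102, followed by Fst (79.3), Slc4a11, a membrane transporter (51.4), Bst1 (48.7) and Cfap52 (45.4). The leading 20 also held Corin, the protease that activates atrial natriuretic peptide (43.6), Htr4, a serotonin receptor (38.9), Angpt2, a ligand of the endothelial receptor Tie2 (37.1), and Tert, the catalytic subunit of telomerase (36.5). Sorcs3, Upk3b, Npy, Scel, Proser2, Cntf, Arc, Gprc5a, Stk32a and the markers Slc14a2 (43.7) and Cryab (25.0) completed them.

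Aqp1 differed between cells just outside and just inside the rule, and among its members. Cells with 2 markers, just outside, numbered 567 and had 331, 526 and 546 CPM of Aqp1 in the sham mice and 114, 174 and 162 CPM in the DOCA-salt mice. Cells with 3 markers, just inside, numbered 539 and had 2639, 3089 and 2575 CPM of Aqp1 in the sham mice and 1999, 1620 and 1095 CPM in the DOCA-salt mice. Cells with 4 markers numbered 300. They had 3490, 3356 and 3361 CPM of Aqp1 in the sham mice and 3018, 2991 and 3465 CPM in the DOCA-salt mice. In each mouse this was above its cells with 3 markers. Cells with 5 markers numbered 33, with 7, 3 and 0 in the sham mice and 8, 10 and 5 in the DOCA-salt mice. They had 1411 and 1156 CPM of Aqp1 in sham mice 1 and 2, and 733, 3394 and 2942 CPM in the DOCA-salt mice. Aqp1 thus rose from 2 to 4 markers in each mouse. It did not rise further to 5 markers in every mouse, a step that rests on few cells. No cell had all 6 markers. A deeper cell passes a rule on detected genes more readily, so the members were also split by the share of their UMIs that came from the 6 markers, a split chosen after seeing the data. At least 0.2% came from them in 817 members, called marker-rich, and less in 55, called marker-poor, with 22 members between 0.15% and 0.25%. The marker-poor cells were 7, 5 and 4 in the sham mice (3.95%, 2.81% and 2.47% of the members) and 16, 15 and 8 in the DOCA-salt mice (11.2%, 12% and 9.20%), and the groups did not overlap. Their median was 14765 to 29378 UMIs, and Aqp1 reached 26.4, 26.0 and 996 CPM in the sham mice and 142, 89.5 and 44.4 CPM in the DOCA-salt mice. Thus 55 cells of high depth and mostly low Aqp1 were counted as thin limb cells by the rule.

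The share of thin limb cells was lower in each DOCA-salt mouse than in each sham mouse under the rule, but the groups overlapped under 5 of 14 other ways of choosing the cells or the denominator. Members made up 1.99%, 2.47% and 1.87% of eligible barcodes in the sham mice and 1.64%, 1.37% and 1.05% in the DOCA-salt mice, or 2.11% ± 0.319 against 1.35% ± 0.299 (SD, n = 3 each). The log2 ratio of DOCA-salt to sham was -0.64 (two-sided exact permutation test, p = 0.1). The limit of 0 UMIs of Ptprc, Pecam1 and Col1a1 removed 12.4%, 9.18% and 10.0% of otherwise qualifying cells in the sham mice and 26.3%, 40.8% and 40.4% in the DOCA-salt mice. Col1a1, a collagen gene of fibroblasts, was found in 5 such cells of the sham and 109 of the DOCA-salt mice. Without the limit the shares were 2.27%, 2.72% and 2.07% in sham and 2.23%, 2.32% and 1.76% in DOCA-salt mice, which overlapped (log2 ratio -0.17, exact permutation test, p = 0.5). Without it and for marker-rich cells alone they were 2.15%, 2.65% and 1.97% against 1.82%, 1.71% and 1.32% (log2 ratio -0.48, exact permutation test, p = 0.1). Per 100 thick ascending limb cells, which were chosen with the same limit, there were 25.5, 37.4 and 21.9 members in the sham mice and 21.8, 23.2 and 18.6 in the DOCA-salt mice, and the ranges overlapped (exact permutation test, p = 0.2). They also overlapped with markers counted after thinning to 1000 UMIs (log2 ratio -0.37, exact permutation test, p = 0.4), with at least 4 markers (-0.47, p = 0.3) and as a share of barcodes without Ptprc, Pecam1 and Col1a1 (-0.34, p = 0.2).

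The marker-rich members fell into groups by which of 4 markers led. A cell was placed by the highest of Slc14a2, Fst, Epha7 and Sptssb, with at least 2 UMIs and no tie, which put 210 cells in the Slc14a2, 257 in the Fst, 211 in the Epha7 and 36 in the Sptssb subset and left 103 unplaced. These 4 genes belong to the rule and the grouping was made after seeing the data, so sizes and defining levels are descriptions. Slc14a2 and Fst hardly met in 1 cell. In the sham mice 166 cells had at least 2 UMIs of Slc14a2, 112 had at least 2 of Fst, and 0 had both. In the DOCA-salt mice 10 cells had both, of 97 with Slc14a2 and 147 with Fst. By contrast, Epha7 was found with Slc14a2 in 63 sham and 43 DOCA-salt cells.

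Each subset carried genes that the placement did not use. The Slc14a2 subset held nearly all Corin, with a mean of 753 CPM against 0.3 CPM in the Fst subset and 4.1 CPM in the Epha7 subset, and likewise Htr4 with 424 CPM against 1.2 and 2.7 CPM. Tshr, the thyrotropin receptor gene, was at 210 CPM there in the sham mice and at 0 UMIs in the sham Fst subset. The Fst subset had most of Lypd2, at 1140 CPM against 18.9 CPM in the Slc14a2 and 35 CPM in the Epha7 subset, and the highest Slc4a11, at 554 CPM. Its Cldn4, a claudin of tight junctions, was low at 44.4 CPM against 459 CPM in the Slc14a2 and 487 CPM in the Epha7 subset. Aqp1 was highest in the Epha7 subset with 4580 CPM, then in the Fst subset with 3628 CPM and the Slc14a2 subset with 1096 CPM. The Sptssb subset, 1 to 13 cells per mouse, had 91.2 CPM of Aqp1, together with the highest Cryab (21125 CPM) and the highest Akr1b3, the aldose reductase that makes sorbitol (5624 CPM). In that subset the urothelial gene Psca stood at 6622 CPM in the 3 cells of DOCA-salt mouse 2, at 1041 CPM in sham mouse 2 and at 0 UMIs in the other mice.

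**Figure D2:**
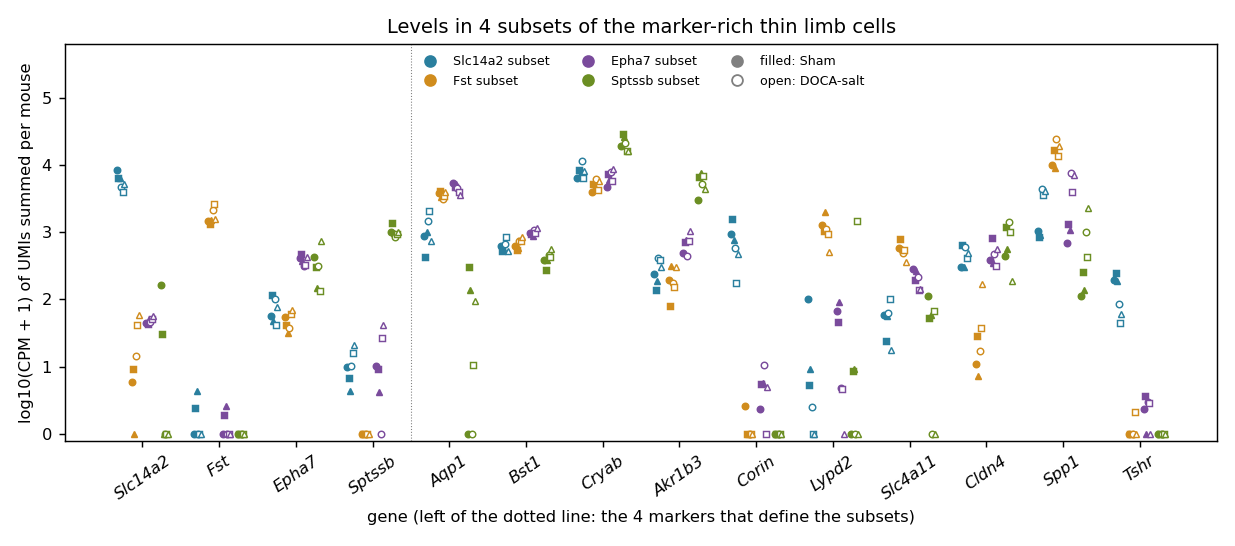
Levels of the 4 markers that define the subsets (left of the dotted line) and of 10 other genes in the Slc14a2, Fst, Epha7 and Sptssb subsets, on a log10(CPM + 1) scale, 1 point per mouse and subset. Corin and Tshr lie in the Slc14a2 subset, Lypd2 in the Fst subset, and Aqp1 is low in the Sptssb subset of all mice.

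The Fst subset took a larger part of the marker-rich members in the DOCA-salt mice. It was 28.2%, 18.5% and 19.6% of them in the sham mice and 47.2%, 50.0% and 39.2% in the DOCA-salt mice, a mean of 22.1% ± 5.33 against 45.5% ± 5.59 (SD, n = 3 each), and the groups did not overlap. The Slc14a2 subset was 31.2%, 24.9% and 27.8% against 25.2%, 18.2% and 22.8%, the Epha7 subset 20%, 39.3% and 31.0% against 19.7%, 18.2% and 19.0%, and the Sptssb subset 2.94%, 6.94% and 8.23% against 0.787%, 2.73% and 2.53%. In cell numbers the Fst subset had 48, 32 and 31 cells in sham and 60, 55 and 31 in DOCA-salt mice, whereas the Slc14a2 subset had 53, 43 and 44 against 32, 20 and 18. Fst is itself a marker of the rule, so these sizes and the next values are a description. After thinning all members to 1000 UMIs, Fst was detected in 19.0%, 12.3% and 14.4% of sham members and 34.7%, 38.0% and 27.6% of DOCA-salt members.

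**Figure D3:**
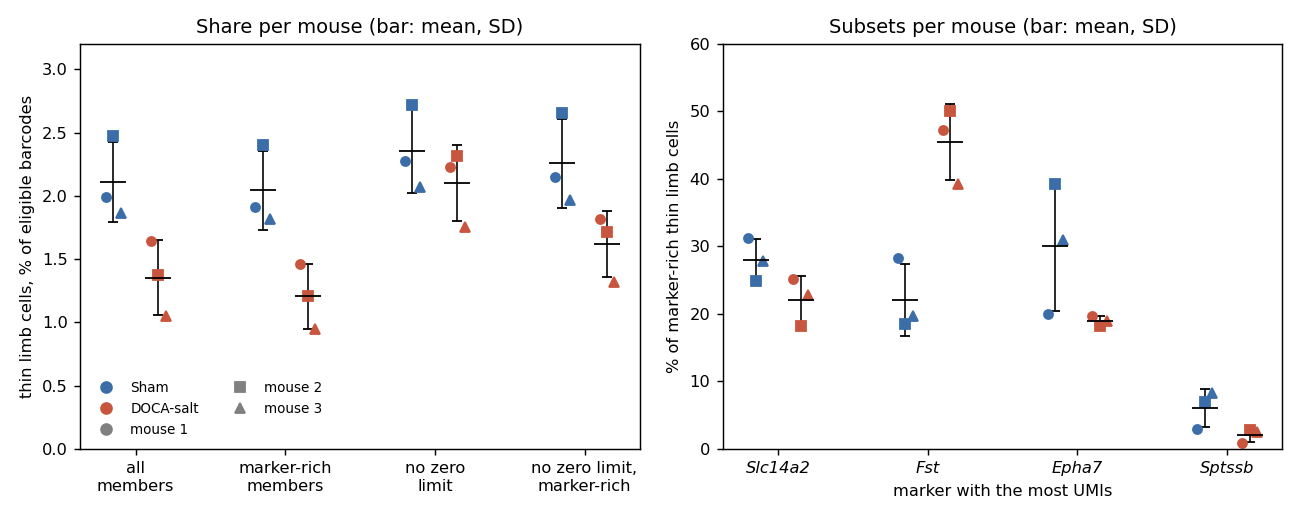
Left, thin limb cells as a percent of eligible barcodes under the rule, for marker-rich members, and for both without the limit of 0 UMIs of Ptprc, Pecam1 and Col1a1. Right, the 4 subsets as a percent of marker-rich members. Points are mice, and bars are the mean and SD of 3 mice; the DOCA-salt mice lie at 39.2% to 50.0% for Fst and the sham mice at 18.5% to 28.2%.

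Gene levels in thin limb cells were then compared between the 3 DOCA-salt and the 3 sham mice on summed UMIs with the quasi-likelihood test of edgeR and Benjamini-Hochberg adjustment, without the 15 genes of the rule. Of 11541 genes tested, 307 rose (2.66%) and 92 fell (0.797%) at an adjusted p below 0.05, with a median log2 change of -0.0041 over all genes. In marker-rich members alone 49 of 10923 genes rose (0.449%) and 19 fell (0.174%). Of these, 46 and 18 were among the calls in all members, which is 15% of the 307 and 19.6% of the 92. The marker-poor cells, 39 of the 355 DOCA-salt members, gave 17.9% of the members' UMIs in those mice. Counts of rises over all members were lower by more than 1.5 times without sham mouse 1 (179), sham mouse 3 (204) or DOCA-salt mouse 3 (146). Counts of falls moved that far without sham mouse 1 (33), sham mouse 2 (188), DOCA-salt mouse 1 (42), mouse 2 (45) or mouse 3 (21). The marker-rich calls were 7 rises and 3 falls without sham mouse 1, 67 and 47 without sham mouse 2, and 32 and 24 without sham mouse 3. They were 45 and 7 without DOCA-salt mouse 1, 11 and 5 without mouse 2, and 2 and 0 without mouse 3, so the number of marker-rich calls depended on single mice.

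**Figure D4:**
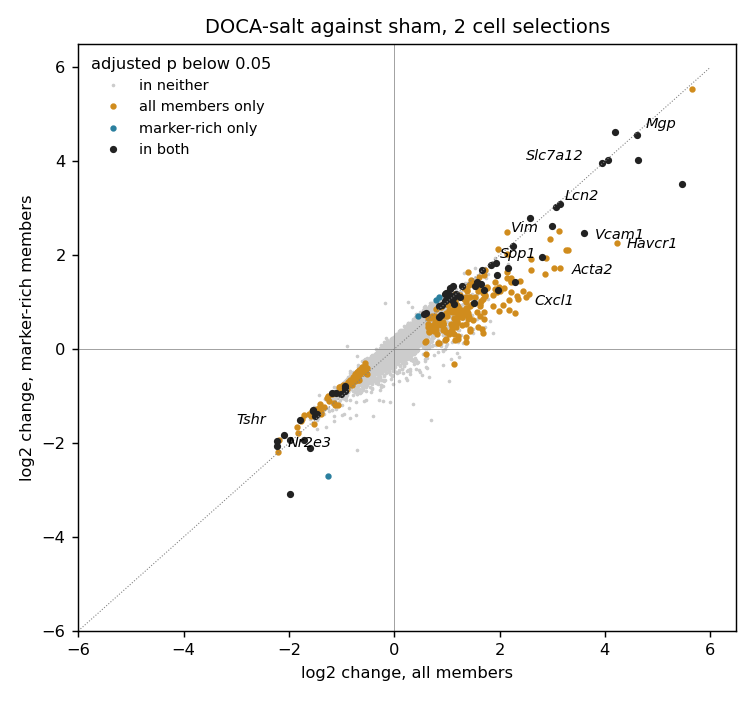
Log2 change in DOCA-salt against sham mice for genes tested in both selections, in all members (x axis) and in marker-rich members (y axis). Genes called in all members alone and higher in DOCA-salt mice lie mostly below the diagonal (178 of 188), among them Vim, Havcr1, Acta2 and Cxcl1, while of the genes called in both some lie close to it (Spp1, Lcn2, Mgp and Slc7a12) and others below it (Kcnip4, Vcam1 and Sox9).

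Under each of 11 ways of choosing the cells, 29 genes passed the test, 20 higher and 9 lower in DOCA-salt mice. The ways were the rule itself, the 2 limits on marker UMIs, 2 or 4 markers, other limits on UMIs, mitochondrial UMIs and proximal genes, doublet removal, no limit on Ptprc, Pecam1 and Col1a1, and no members with markers of other types. Thinning before the markers were counted kept 37, 51 and 43 members in the sham mice and 50, 33 and 26 in the DOCA-salt mice. It left 4 calls in 7731 genes and is not among the 11 ways. Marker-rich cells without the limit on Ptprc, Pecam1 and Col1a1, with 91 rises and 28 falls, are not among them either. The 20 were Mgp, Lcn2, H2-Aa, Lhfp, Ptgds, H2-Eb1, Apoe, Sox11, Spp1, Slco3a1, Pdgfd, Il18r1, Cdk6, Agt, Cldn2, Ackr3, Mt2, Ccnd1, Ptprd and Plod2. The 9 were Nr2e3, Inmt, Tshr, Ccdc162, Plpp4, Arhgef38, Fxyd4, Sorcs3 and Ntn4. In the sham mice 13 of the 20 had their highest level in the Fst subset and 0 of the 9 did. The share of that subset moved with the groups, and its part in these changes was not tested over all members. Within the subsets, 16 of the 19 higher genes and 7 of the 9 lower genes that could be tested kept their sign in each subset tested. The subsets are parts of the same cells that picked the genes, so these signs are a description. Mgp, Nr2e3, Plpp4 and Tshr could be tested in 1 subset alone. Over all members the filter on low counts kept Mgp through its DOCA-salt level. In the Fst subset no call was among the 29 genes, and Apoe came closest (log2 change 1.43, edgeR adjusted p = 0.0592). The genes whose sign turned in a subset were Ccnd1, H2-Eb1 and Mt2 among the higher and Fxyd4 and Sorcs3 among the lower.

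Spp1, which encodes the secreted phosphoprotein osteopontin (chromosome 5, 104582165 to 104589235, plus strand, GRCm39), rose in thin limb cells as a whole. It had 3037, 3728 and 2328 CPM in the sham mice and 13196, 8192 and 11311 CPM in the DOCA-salt mice, a log2 change of 1.84 (SE 0.22, edgeR adjusted p = 0.00174). The lowest DOCA-salt mouse was above the highest sham mouse. Within the Slc14a2 subset Spp1 went from 1032, 860 and 897 CPM to 4432, 3633 and 4116 CPM (log2 change 2.12, SE 0.21, adjusted p = 0.000201). Within the Epha7 subset it went from 699, 1344 and 1094 CPM to 7555, 3948 and 7166 CPM (log2 change 2.58, SE 0.29, adjusted p = 3.8e-05). The Fst subset was high in both groups, with 10142, 16777 and 8903 CPM in sham and 24447, 13598 and 18904 CPM in DOCA-salt mice (log2 change 0.66, SE 0.25, adjusted p = 0.511). So the rise passed the test in the subsets that started low, and the difference between the subsets' changes was not tested. Spp1 was also higher in other cells, with means of 2417 CPM in sham and 6166 CPM in DOCA-salt thick ascending limb cells, and its change in thin limb cells was larger by 0.52 on the log2 scale (SE 0.12, adjusted p of the difference 0.0198).

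The other higher genes among the 29 included Ccnd1 and Cdk6 of the cell cycle, the tight junction gene Cldn2, and Agt, Ackr3 and Mt2. Ccnd1, the cyclin of the G1 phase, had 175, 198 and 137.99 CPM in sham and 324, 309 and 327 CPM in DOCA-salt members (log2 change 0.90, SE 0.13, adjusted p = 0.00469). In the Slc14a2 subset Ccnd1 went from 75.5, 111 and 69.9 CPM to 171, 268 and 329 CPM (log2 change 1.55, adjusted p = 0.0227). In the Epha7 subset it went from 93.7, 107 and 101 CPM to 325, 196 and 200.4 CPM (log2 change 1.28, adjusted p = 0.00285), and the Fst subset had means of 550 CPM in sham and 504 CPM in DOCA-salt mice (adjusted p = 0.957). Its partner kinase Cdk6 rose from 70.4 ± 7.88 to 157 ± 15.3 CPM (log2 change 1.14). Cldn2, a claudin that lets cations and water pass between cells, had 80.8, 65.7 and 68.2 CPM in sham and 129, 160 and 175 CPM in DOCA-salt members (log2 change 1.10, SE 0.15, adjusted p = 0.00303). It too was highest in the sham Fst subset, at a mean of 192 CPM against 16.7 CPM in the Slc14a2 and 49.5 CPM in the Epha7 subset. Within the Slc14a2, Fst and Epha7 subsets its log2 changes were 0.95, 0.31 and 1.00 without a call (edgeR adjusted p = 0.579, 0.867 and 0.0629). The change of Cldn2 exceeded that in thick ascending limb cells by 1.02 (SE 0.24, adjusted p = 0.016) and that in principal cells by 1.56 (SE 0.29, adjusted p = 0.00186). Agt, the angiotensinogen gene, had 111, 113 and 70.8 CPM against 248, 213 and 179 CPM (log2 change 1.12, adjusted p = 0.00717), with sham means of 1.35 CPM in thick ascending limb and 1.19 CPM in principal cells. Ackr3, a scavenger receptor for the chemokine Cxcl12, rose from 148 ± 20.5 to 313 ± 20.2 CPM. It was highest in the sham Fst subset, at a mean of 533 CPM against 26.7 CPM in the Slc14a2 and 82.2 CPM in the Epha7 subset. Within the Slc14a2, Fst and Epha7 subsets its log2 changes were 1.20, 0.43 and 0.20 without a call (edgeR adjusted p = 0.530, 0.671 and 0.871). The part of the larger Fst subset in the Ackr3 and Cldn2 changes was not tested. Mt2, a metallothionein, rose from 58.3 ± 11.6 to 115 ± 11.6 CPM (adjusted p = 0.0132), a call that was lost without DOCA-salt mouse 1 (adjusted p = 0.0603).

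Nr2e3 and Sorcs3 fell in thin limb cells and were below 2 CPM on average in thick ascending limb and principal cells. Nr2e3, an orphan nuclear receptor best known from photoreceptors (chromosome 9, 59850054 to 59867942, minus strand, GRCm39), had 53.2, 38.6 and 51.2 CPM in the sham members and 12.1, 8.67 and 9.77 CPM in the DOCA-salt members (log2 change -2.22, SE 0.22, edgeR adjusted p = 0.000965). All DOCA-salt mice lay below all sham mice. In the Epha7 subset, where it was highest, Nr2e3 had 164, 65.3 and 122 CPM against 31.1, 18.4 and 36.1 CPM (log2 change -2.07, adjusted p = 0.00291). Tshr had 65.8, 70.0 and 57.7 CPM in sham and 22.2, 9.80 and 12.6 CPM in DOCA-salt members (log2 change -2.10, SE 0.25, adjusted p = 0.00174). Within the Slc14a2 subset it went from 193, 249 and 188 CPM to 84.6, 43.1 and 59.2 CPM (log2 change -1.72, adjusted p = 0.013).

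Sorcs3, a receptor of the sortilin family, had 459, 490 and 355 CPM in sham and 188, 199 and 190 CPM in DOCA-salt members (log2 change -1.18, SE 0.13, adjusted p = 0.00163). Within the Epha7 subset, where it was highest, its log2 change was -0.69 (adjusted p = 0.182). Fxyd4, a small regulator of the sodium pump, fell from 152 ± 22.3 to 53.9 ± 16.1 CPM (log2 change -1.47, adjusted p = 0.00304), also within the Epha7 subset (-1.21, adjusted p = 0.00221). In principal cells the means of Fxyd4 were 3578 CPM in sham and 4160 CPM in DOCA-salt mice. Ntn4, a netrin of basement membranes, fell from 262 ± 57.9 to 131 ± 0.269 CPM. Plpp4, a lipid phosphatase (-1.78), Ccdc162 (-1.98) and Arhgef38 (-1.51) completed the 9 beside Inmt.

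**Figure D5:**
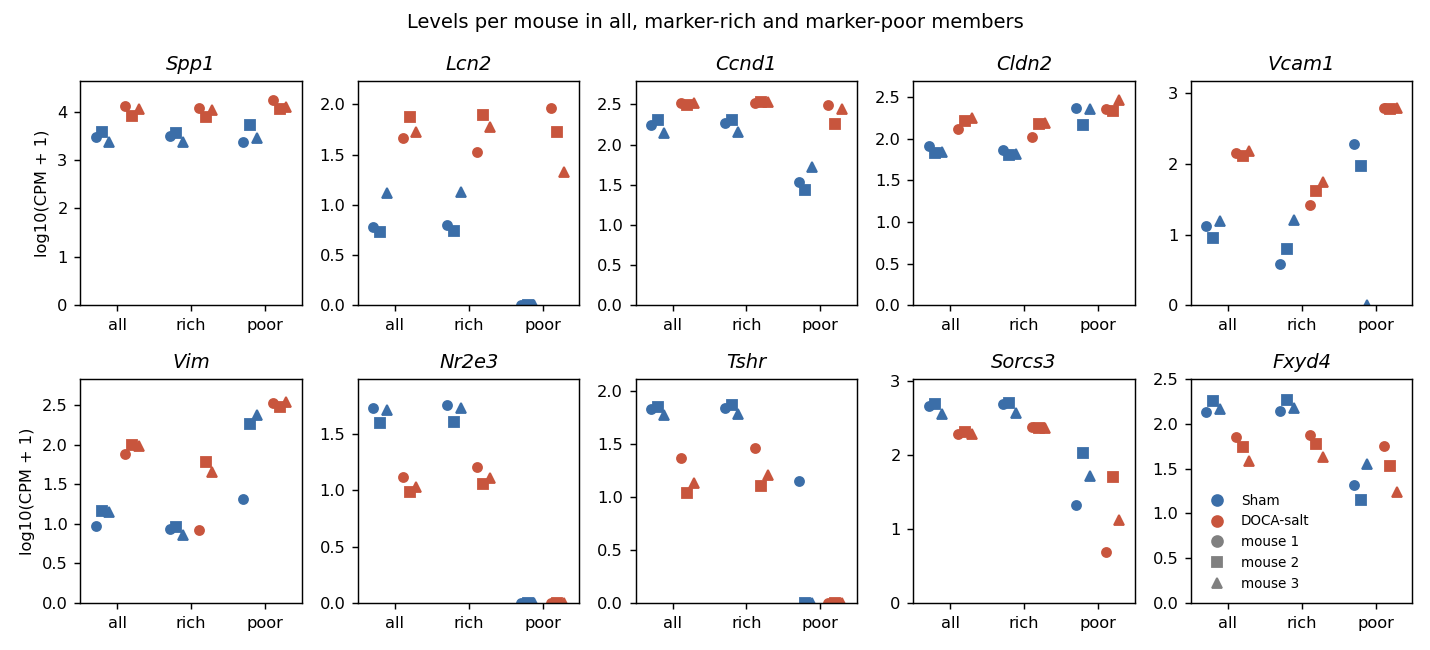
Levels of 10 genes per mouse in all, marker-rich and marker-poor thin limb cells, on a log10(CPM + 1) scale. The groups separate for Spp1, Lcn2, Ccnd1, Cldn2, Nr2e3, Tshr, Sorcs3 and Fxyd4 in all and in marker-rich members, while Vim overlaps in marker-rich members and Vcam1 is highest in marker-poor members of DOCA-salt mice.

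Some of the 29 genes had like levels in other cell types. Mgp, a matrix protein that binds calcium, went from 1.53 ± 0.507 to 36.9 ± 7.40 CPM in thin limb cells (log2 change 4.61, SE 0.32, adjusted p = 0.000106). The filter on low counts kept Mgp through its DOCA-salt level, so its call is a description. Its means were 2.5 and 38.6 CPM in thick ascending limb cells and 3.41 and 34.5 CPM in principal cells. Inmt, a methyltransferase, fell from 67.6 ± 17.7 to 14.1 ± 3.55 CPM (log2 change -2.22, adjusted p = 0.0017), and its means were 72.7 and 23.0 CPM in thick ascending limb cells. H2-Aa, a class II antigen presentation gene, was at 6.65, 5.51 and 6.52 CPM against 19.1, 56.9 and 59.3 CPM in thin limb cells and at means of 6.27 and 23.9 CPM in thick ascending limb cells. The part of RNA from outside the cells in these 3 changes was not tested. Lcn2, the injury gene of lipocalin-2, was at 4.99, 4.33 and 12 CPM against 44.8, 73.9 and 52.3 CPM (log2 change 3.07, SE 0.35, adjusted p = 0.00163), beside means of 9.19 and 119 CPM in thick ascending limb and 146 and 889 CPM in principal cells.

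Several of the largest rises over all members were carried in most of their UMIs by the marker-poor cells, and others were not. Among genes with a mean of at least 20 CPM whose groups did not overlap, the 12 largest rises were Igfbp2 (log2 change 5.65), Ccl2 (5.55), Kcnip4 (5.46), Cxcl2 (5.31), Havcr1 (4.24), Slc7a12 (3.94), Vcam1 (3.61), Cd74 (3.26), Acta2 (3.16), Dock10 (3.13), Lcn2 (3.07) and Vim (2.97). Over all members the filter on low counts kept Igfbp2, Ccl2, Kcnip4, Cxcl2, Havcr1 and Slc7a12 through their DOCA-salt levels, so their calls are descriptions. Dock10, at 0.394 CPM in sham mouse 2, also needed a DOCA-salt mouse to be kept. In marker-rich members Kcnip4, Slc7a12, Vcam1 and Lcn2 passed the test, Ccl2 and Cxcl2 were too low to be tested, and the other 6 did not pass it. Of these 6, Igfbp2 had about the same log2 change there (5.54, SE 1.54, edgeR adjusted p = 0.191), and Dock10 had 2.51, Vim 2.34, Havcr1 2.27, Cd74 2.12 and Acta2 1.72. Marker-poor cells gave over 50% of the UMIs in DOCA-salt members for 9 of the 12 genes, and 18.6% for Igfbp2, 19.4% for Lcn2 and 16.3% for Slc7a12, against 17.9% of all UMIs. Igfbp2, a binding protein of insulin-like growth factors, was at 34.7, 323 and 38.4 CPM in the DOCA-salt mice, and its call was lost without sham mouse 1 (adjusted p = 0.0761) or sham mouse 3 (0.0606). The call of Havcr1, the gene of kidney injury molecule 1, was lost without sham mouse 1 (0.0779) or DOCA-salt mouse 1 (0.0713).

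Vcam1, an adhesion molecule for leukocytes (chromosome 3, 115903598 to 115923355, minus strand, GRCm39), was one of the 9. It had 12.3, 7.87 and 14.6 CPM in sham and 143, 128 and 154 CPM in DOCA-salt members (SE 0.20, edgeR adjusted p = 2.7e-05). In marker-rich members these were 2.80, 5.28 and 15 CPM against 25.0, 40.4 and 54.8 CPM (log2 change 2.46, SE 0.46, adjusted p = 0.0411). Marker-poor cells gave 77.8% of the Vcam1 UMIs in DOCA-salt members. The like share was 65.8% for Vim, the intermediate filament vimentin, 77.9% for Havcr1, 73.0% for Acta2, the smooth muscle actin, and 78.2% for Cxcl2, a chemokine that draws neutrophils. For the 20 higher genes of the 29 the share ran from 4.53% for Agt to 57.4% for Apoe with a median of 24.9%, and it was above that of all UMIs for 14 of them. It was 23.8% for Spp1 and 26.1% for Mgp, and 53.3% for H2-Aa, 49.7% for H2-Eb1, 48.3% for Pdgfd and 45.2% for Ptgds. Slc7a12, an amino acid transporter, was the same in both selections, with 5.32, 0.394 and 3.01 CPM in sham and 54.2, 40.0 and 47.4 CPM in DOCA-salt members and a marker-rich log2 change of 3.96 (SE 0.40, adjusted p = 0.00303). Slc7a12 stood at means of 0.928 CPM in thick ascending limb and 5.4 CPM in principal cells of DOCA-salt mice.

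The 12 largest falls under the same limits were Nr2e3 (-2.22), Inmt (-2.22), Tshr (-2.10), Ccdc162 (-1.98), Amdhd1 (-1.85), Klk1 (-1.83), Plpp4 (-1.78), Corin (-1.76), Wnt11 (-1.55), Ndrg4 (-1.54), Arhgef38 (-1.51) and Fxyd4 (-1.47). Amdhd1, Klk1, Corin and Wnt11 did not pass the test in marker-rich members, in which their log2 changes were -1.66, -1.79, -1.48 and -1.30. Klk1, tissue kallikrein, belongs to a family of near-identical genes whose reads the counting can split, and its means in principal cells were 3461 CPM in sham and 487 CPM in DOCA-salt mice. Corin had 314, 425 and 238 CPM in sham and 153, 35.4 and 101 CPM in DOCA-salt members (SE 0.39, edgeR adjusted p = 0.0344). The Corin call was lost without sham mouse 1 (0.0853), sham mouse 3 (0.0513) or DOCA-salt mouse 3 (0.127). The calls of Amdhd1 and Wnt11 were each lost without sham mouse 1 or DOCA-salt mouse 3, that of Amdhd1 also without DOCA-salt mouse 2 and that of Wnt11 without DOCA-salt mouse 1, and Klk1 was lost without any one of the DOCA-salt mice.

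The promoters of Cxcl1 and Cxcl2 are shown because both chemokine genes rose over all members and both hold a match to a motif of NF-kappaB, the 10 bases in capitals with the fifth base free to be any. These genes and the motif were chosen after their values were seen. The sequences are the 250 bases before the start of each gene from RefSeq (build GRCm38.p6, chromosome 5, plus strand, chr5:90890995-90891244 for Cxcl1 and chr5:90903649-90903898 for Cxcl2), with that match in capitals. Its first base lies at -71 in Cxcl1 and at -97 in Cxcl2, counted from the start.
Cxcl1: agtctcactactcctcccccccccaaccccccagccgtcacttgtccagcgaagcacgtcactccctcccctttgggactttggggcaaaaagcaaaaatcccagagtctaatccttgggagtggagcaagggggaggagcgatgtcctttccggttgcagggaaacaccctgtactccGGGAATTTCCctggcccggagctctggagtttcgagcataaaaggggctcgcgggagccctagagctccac
Cxcl2: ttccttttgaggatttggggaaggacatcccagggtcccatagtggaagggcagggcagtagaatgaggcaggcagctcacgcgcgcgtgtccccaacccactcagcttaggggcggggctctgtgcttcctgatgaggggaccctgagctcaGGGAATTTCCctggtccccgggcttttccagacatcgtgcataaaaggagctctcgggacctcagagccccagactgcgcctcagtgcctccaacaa

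On either strand the motif was in 112 of 27025 promoters of this length (0.414%) and in 42 of the 9044 tested genes with a promoter (0.464%). Of the genes that rose, B2m, Birc5 and Cachd1 held it beside Cxcl1 and Cxcl2, and since the motif was chosen for the latter no share is set against the others. A match describes letters and not binding. Cxcl1 had 24.3, 21.3 and 22.1 CPM in sham and 112, 93.5 and 172 CPM in DOCA-salt members (log2 change 2.45, SE 0.22, edgeR adjusted p = 0.000526). In marker-rich members the values were 21.7, 17.9 and 21.2 CPM against 29.4, 67.8 and 43.0 CPM (log2 change 1.24, SE 0.28, adjusted p = 0.0946). Marker-poor cells gave 66.5% of the Cxcl1 UMIs in DOCA-salt members.

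In the lists that follow, the counts stand beside the 2.66% of all genes that rose and the 0.797% that fell, and in marker-rich members beside 0.449% and 0.174%. Counts at an unadjusted p below 0.05 stand beside 15.9% of all genes, and DESeq2 calls beside 3.89%. Of 39 tested genes of tubular injury and repair, 16 rose and 0 fell, with a median log2 change of 0.76, and in marker-rich members 4 of 35 rose (Spp1, Lcn2, Sox9 and Vcam1) with a median of 0.35. Sox9, a transcription factor of tubule repair, had 21.6, 8.26 and 15.6 CPM in sham and 93.6, 63.4 and 67.7 CPM in DOCA-salt members, and its marker-rich change was 1.42 (SE 0.25, edgeR adjusted p = 0.0358). The other 12 included Cd44, Clu, Itgb8, Sox4 and Anxa3, with marker-rich changes of 1.94, 1.23, 0.87, 0.62 and 0.60 that did not pass. Krt20 had 0 UMIs in every sham mouse and 5.66 to 10.1 CPM in the DOCA-salt mice, where marker-poor cells gave 52 of its 54 UMIs (96.3%). Of 24 genes of antigen presentation, complement and interferon 7 rose (Cd74, H2-Aa, H2-Eb1, C3, B2m, Cfb and Bst2), of 34 of extracellular matrix and adhesion 6 rose (Mgp, Sparc, Fn1, Cdh2, Col4a1 and Lama1), and 0 fell in either list. In marker-rich members 2 of each list rose, H2-Aa and H2-Eb1, and Mgp and Cdh2. There C3 went from a log2 change of 1.67 in all members to 0.42, Cfb from 1.35 to 0.14 and Lama1 from 1.21 to 0.29, and marker-poor cells gave 86.5%, 71.1% and 65.8% of their UMIs in DOCA-salt members. Cd74, B2m, Bst2, Sparc, Fn1 and Col4a1 had marker-rich changes of 2.12, 0.52, 1.11, 1.19, 1.73 and 0.51 that did not pass. Of 16 cell cycle genes 10 could be tested and 6 rose, and in marker-rich members 2 of 6 did, Ccnd1 and Stmn1. The other rises, Birc5, Cenpf, Mki67 and Ccnb2, had sham means of 2.76, 0.877, 2.81 and 1.96 CPM. Their DOCA-salt means were 17.8, 19.8, 20.5 and 10.4 CPM. The filter on low counts kept these genes through their DOCA-salt levels. It did the same for Krt20, Ccl2, Cxcl2 and Havcr1 of the injury list and for Mgp and Fn1 of the matrix list. Cd44, at 3.15 CPM in sham mouse 2, also needed a DOCA-salt mouse to be kept. These list counts are therefore descriptions. Without any 1 of 2 to 5 of the mice, Havcr1, Anxa3, Itgb8, Sox4 and Nrg1 of the injury list, B2m, Bst2 and Cfb, Cdh2, Col4a1 and Lama1, and Birc5, Ccnb2, Cenpf and Mki67 of the cell cycle list lost their calls (adjusted p = 0.0506 to 0.166).

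Some markers of stromal and immune cells rose in the same mice, and those of several other types did not pass the test. The 8 fibroblast and pericyte genes together had 9.97 to 25.6 CPM in the sham and 85.1 to 229 CPM in the DOCA-salt members, and Col1a2, Acta2 and Rgs5 passed the test, with 1 of the 8 at 0 in all sham mice. In marker-rich members their sum was 9.45 to 25.3 CPM and 27.4 to 101 CPM, and neither of the 2 that could be tested passed (Acta2 1.72, Rgs5 2.11). Over all members the filter on low counts kept Col1a2, at a sham mean of 0.131 CPM, through its DOCA-salt level. It kept Rgs5, at 1.66, 3.54 and 9.03 CPM in the sham mice, in the same way, so the count of these calls is a description. Of 10 macrophage and immune genes, 4 could be tested and 2 rose, Lyz2 (log2 change 3.15) and C1qa (1.98), from means of 0.927 and 2.15 CPM to 9.64 and 8.88 CPM. The filter kept both through their DOCA-salt levels, so the count of 2 is a description. C1qb did not pass, with means of 1.85 and 7.06 CPM, and the groups did not overlap for these 3 genes, against 21.1% of all genes. In marker-rich members Lyz2 passed (3.09, edgeR adjusted p = 0.0411) and C1qa did not (2.12, adjusted p = 0.0895). The call of C1qa was lost without any 1 of 5 mice (adjusted p = 0.0636 to 0.166) and that of Lyz2 without DOCA-salt mouse 2 (0.0586) or 3 (0.0506). The sum of the 10 overlapped, at 104 to 142 CPM in sham and 112 to 141 CPM in DOCA-salt members, and most of it was Csf1r, with means of 111 and 91.3 CPM. The 7 urothelial genes summed to 17.1 to 212 CPM in the sham and 10.5 to 642 CPM in the DOCA-salt members, and 0 of the 5 tested passed, with 0 at an unadjusted p below 0.05 and 0 called by DESeq2. In all other eligible cells these genes summed to 4.54 to 19.9 CPM in sham and 14.7 to 23.0 CPM in DOCA-salt mice. The members' sums were highest in sham mouse 2 (212 CPM) and in DOCA-salt mice 2 (642 CPM) and 3 (165 CPM). Of 8 endothelial genes 0 of 5 tested passed in edgeR, with 1 at an unadjusted p below 0.05 and 0 called by DESeq2, and their sums were 13.4 to 28.9 CPM in the sham and 32.4 to 47.4 CPM in the DOCA-salt members, and of 5 podocyte and parietal genes 1 of 2 rose (Ncam1). Of other tubule markers, 0 of 14 proximal and 0 of 4 distal convoluted tubule genes passed in edgeR (5 and 3 at an unadjusted p below 0.05, 2 and 2 by DESeq2), while 2 of 7 genes listed for the thick ascending limb (Egf and Klk1), 1 of 4 principal cell genes (Fxyd4) and 1 of 5 intercalated cell genes (Slc4a1) fell. Klk1 was high in sham principal cells, so it does not mark the thick ascending limb alone. Among marker-rich members 2 of 4 principal cell genes fell, Fxyd4 and Aqp3 (-2.71, edgeR adjusted p = 0.0444). There 0 of 6 thick ascending limb and 0 of 2 intercalated cell genes passed. The calls of Rgs5, Ncam1, Egf, Klk1 and Slc4a1 were lost without any 1 of 2 to 4 of the mice (adjusted p = 0.0523 to 0.185). No red blood cell gene could be tested. The part of such cells in the changes of injury, matrix and antigen presentation genes was not tested.

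Of 25 genes of water, ion and urea transport 3 rose, Slc4a4, a sodium bicarbonate cotransporter, with a log2 change of 1.71, Slc12a2, the NKCC1 cotransporter, with 1.11, and the potassium channel gene Kcnj15 with 0.99. At an unadjusted p below 0.05 there were 11, against 15.9% of all genes, and DESeq2 called 5, against 3.89%. None of the 3 passed in marker-rich members, where their changes were 0.79, 0.81 and 0.35, while Slc16a7, a monocarboxylate carrier, rose by 1.11 (edgeR adjusted p = 0.038). Of 19 claudin and tight junction genes Cldn1, Cldn2 and Cldn10 rose and Cldn8 fell by 1.03, with 9 at an unadjusted p below 0.05 and 4 called by DESeq2. Cldn2 alone passed in marker-rich members, in which the changes were 1.43 for Cldn1, 1.68 for Cldn10 and -0.80 for Cldn8 (edgeR adjusted p = 0.0549). Aqp1 was not called over all members (log2 change -0.39, adjusted p = 0.193) or in marker-rich members (-0.13, adjusted p = 0.829). Among 17 genes of tonicity and osmolytes, Hspa4l, a heat shock protein, rose by 0.68 (adjusted p = 0.0247). Its call was lost without any 1 of 5 mice (adjusted p = 0.0506 to 0.0984), and in marker-rich members its change was 0.67 (adjusted p = 0.0974). Akr1b3 stood at 406, 728 and 955 CPM against 358, 586 and 509 CPM without a call (adjusted p = 0.401). Of the 17 tested markers of thin limb outside the rule, Cldn1 and Cldn10 rose, and Slc39a8, a zinc transporter (-0.62), and Corin fell. The calls of Slc12a2 and Slc39a8 were lost without any 1 of 4 mice (adjusted p = 0.0535 to 0.132) and that of Kcnj15 without any 1 of 3 (0.0685 to 0.0892).

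Of 21 tested genes known to respond to steroid receptors, 0 rose and 3 fell, against 2.66% and 0.797% of all genes, with 8 at an unadjusted p below 0.05, against 15.9%, and 2 called by DESeq2, against 3.89%. Klf9, a transcription factor induced by glucocorticoids, had 299, 299 and 313 CPM in sham and 223, 210 and 201 CPM in DOCA-salt members (log2 change -0.53, SE 0.12, edgeR adjusted p = 0.0365). The clock genes Per1 (-0.75, adjusted p = 0.0406) and Per2 (-0.52, adjusted p = 0.0445) were the other two. None of the 3 passed in marker-rich members, where their changes were -0.52, -0.58 and -0.52, and each lost its call without any of 4 to 6 of the mice. Nr3c2, the mineralocorticoid receptor gene, was at 110, 109 and 69.2 CPM against 86.6, 97.7 and 70.5 CPM (log2 change -0.18, adjusted p = 0.717), and Sgk1, the kinase it induces, at 47.2, 113 and 97.3 CPM against 90.9, 62.2 and 53.0 CPM (-0.30, adjusted p = 0.698). Both genes overlapped between the groups.

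The remaining lists are given beside the same 2.66% of all genes higher and 0.797% lower, 15.9% at an unadjusted p below 0.05 and 3.89% called by DESeq2. Of 32 genes of ATP release and purinergic signalling, the subject of the study, 12 could be tested and 3 ectoenzyme genes rose, Alpl (1.88), Nt5e (1.96) and Enpp3 (2.18). At an unadjusted p below 0.05 there were 5, and DESeq2 called 2. None of the 3 passed in marker-rich members, where their changes were 0.92, 1.27 and 1.05. Marker-poor cells gave 63.2%, 74.9% and 65.1% of their UMIs in DOCA-salt members, against 17.9% of all UMIs. The filter on low counts kept Enpp3 through its DOCA-salt level, and Nt5e, at 1.97 CPM in sham mouse 2, also needed a DOCA-salt mouse. The count of rises is therefore a description. Panx1, the ATP release channel gene, was too low to be tested, with 1 to 17 UMIs per mouse. In the list of activin, BMP and TGF-beta signalling 4 of 32 rose (Tgfb2, Bmp4, Bmp6 and Ccn1), with 14 at an unadjusted p below 0.05 and 7 called by DESeq2. In marker-rich members 0 of 31 passed, and these 4 had 0.76, 1.03, 0.38 and 0.48. In the list of oxidative stress and iron 3 of 25 rose (Mt2, Nox4 and Slc40a1) and Nqo1 fell, with 7 at an unadjusted p below 0.05 and 5 called by DESeq2. The filter on low counts kept Slc40a1 through its DOCA-salt level. In marker-rich members 1 of 24 rose, Mt2, while Nox4 had 0.33 (edgeR adjusted p = 0.689) and Nqo1 -0.89 (adjusted p = 0.228). The calls of Nt5e, Enpp3, Bmp4, Ccn1, Nox4, Slc40a1 and Nqo1 were lost without any 1 of 3 to 5 of the mice (adjusted p = 0.0504 to 0.199), and that of Mt2 without DOCA-salt mouse 1 (0.0603). Ptgds, a prostaglandin D synthase, was the 1 call among 10 prostaglandin genes, with 3 at an unadjusted p below 0.05 and 1 called by DESeq2. Of 11 ephrin and Eph receptor genes edgeR called 0, with 4 at an unadjusted p below 0.05 and 1 called by DESeq2. The like counts were 0, 6 and 2 of 21 glycolysis genes, 0, 6 and 0 of 23 immediate early genes, and 0 by each measure of 30 respiratory chain genes.

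Few genes passed the test within single subsets, which held 15 to 68 cells per mouse, and all of the calls in the Slc14a2 and Fst subsets are named here, after their values were seen. In the Slc14a2 subset 4 of 7967 genes rose (0.0502%) and 2 fell (0.0251%). Beside Spp1, Ccnd1, Tshr and Ntn4 these were Col4a3, a basement membrane collagen, from 194, 192 and 208 CPM to 535, 390 and 477 CPM (log2 change 1.24, SE 0.19, edgeR adjusted p = 0.0227), and Stmn1, a protein that destabilises microtubules, with 1.61 (SE 0.26, adjusted p = 0.0227).

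In the Fst subset 2 of 6615 genes rose (0.0302%) and 6 fell (0.0907%). Idi1, an isomerase of isoprenoid synthesis, went from 54.1, 63.1 and 28.1 CPM to 5.87, 17.2 and 2.39 CPM (log2 change -2.31, SE 0.44, edgeR adjusted p = 0.0361). Msmo1, a sterol oxidase, went from 152, 118 and 34.3 CPM to 30.8, 27.5 and 31.1 CPM (-1.86, SE 0.35, adjusted p = 0.0361), and Hmgcs1, which makes HMG-CoA for the same pathway, from 228, 159 and 90.5 CPM to 64.6, 68.8 and 57.4 CPM (-1.37, SE 0.26, adjusted p = 0.0361). In all 3 genes sham mouse 3 was the lowest of the sham mice and lay closest to the DOCA-salt mice. The other falls were Tmem86a (-1.58), Rap1gap (-1.32) and H1f0 (-1.19). The rises were Slc34a2, a sodium phosphate cotransporter, from 18.0, 2.74 and 18.7 CPM to 45.5, 83.8 and 151 CPM (2.64, SE 0.46, adjusted p = 0.0222), and Tmsb4x, which binds actin, from 67.2, 35.7 and 81.1 CPM to 119, 188 and 435 CPM (1.92, adjusted p = 0.0361).

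The Epha7 subset gave the most calls, 61 higher (0.796%) and 20 lower (0.261%) of 7661 genes. Beside Spp1, Mgp and Lcn2, Mt2 went from 83.1, 55.4 and 64.9 CPM to 241, 237 and 297 CPM (log2 change 1.94, SE 0.21, edgeR adjusted p = 3.7e-05), and Nupr1, a stress-induced nuclear protein, from 256, 299 and 317 CPM to 785, 769 and 966 CPM (1.54, SE 0.20, adjusted p = 0.000187). Sox9 also rose there, from 3.96, 7.26 and 6.33 CPM to 56.4, 27.5 and 20.04 CPM (2.59, adjusted p = 0.00463). Lypd2, the leading gene of the Fst subset, was at 66.0, 44.5 and 91.8 CPM in the sham Epha7 subset and at 3.89, 3.67 and 0 CPM in the DOCA-salt one (-4.34, SE 0.53, adjusted p = 0.000103). Cells were placed by rule genes, and Fst was higher in DOCA-salt members, so the placement may differ between the groups. Its part in the fall of Lypd2 and in the other changes within subsets was not tested.

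The changes in thin limb cells were set against those in thick ascending limb cells of the same mice, in an edgeR model with the mouse as a block. The difference of the changes passed the test for 670 genes, 371 with a higher (2.91%) and 299 with a lower log2 change in thin limb cells (2.35%) of 12735. Without sham mouse 1 the 670 became 367, and with marker-rich members 324. The largest positive differences were in Kcnip4 (4.97), Dock10 (3.35), Acta2 (2.79), Kcnma1 (2.34) and Tagln (2.33). With marker-rich members Kcnip4 (3.22, edgeR adjusted p = 0.00964) and Dock10 (2.69, adjusted p = 0.0204) passed the test and the other 3 did not.

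At the other end stood Havcr1 (-4.52), Hk2 (-3.57), Tert (-3.16), Gbp2 (-3.09) and Ankrd1 (-3.04). For these 5 the sham thick ascending limb cells had means of 0 to 0.363 CPM, so the size of the difference depends on how the model treats counts near 0. Tert itself was at 122, 76.3 and 85.8 CPM in sham and 30.8, 42.6 and 45.4 CPM in DOCA-salt thin limb cells, and Gbp2 at 68.8, 38.6 and 57.2 CPM against 37.0, 34.7 and 37.0 CPM. Hk2, the hexokinase gene, overlapped between the groups. With marker-rich members Hk2, Tert, Gbp2 and Ankrd1 passed the test of the difference and Havcr1 did not (-6.51, edgeR adjusted p = 0.0928).

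Against principal cells 635 genes had a higher (5.14%) and 652 a lower log2 change (5.28%) in thin limb cells, of 12343. The change of Spp1 exceeded that of principal cells by 0.92 (SE 0.18, edgeR adjusted p = 0.00239) and that of Mt2 by 1.05 (SE 0.27, adjusted p = 0.0172). That of Fxyd4 lay below by 1.70 on the log2 scale (SE 0.19, adjusted p = 2.3e-05). Differences for Lcn2, Mgp and Ccnd1 did not pass the test against either cell type.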

How the data were processed

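The authors deposited raw UMI counts per gene and barcode from 6 mice, made by Cell Ranger on GRCm39. The matrix headers name version 8.0.1 and the study's methods 9.0.0. The values of the count files are whole numbers with no normalization, and cell labels were not used here. The annotation release is not given in the sources used here.

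Members were found by the rule, and their counts were summed per mouse, since cells are not replicates. Sums were tested in edgeR 4.0.16 (R 4.3.3), which filtered low genes by default, scaled libraries by TMM and gave quasi-likelihood F tests, whose p-values were adjusted by Benjamini-Hochberg across every gene fitted. The filter keeps a gene that reaches its limit in 3 mice, which can be those of 1 group. SEs are the absolute log2 change divided by the root of F. The 15 rule genes counted in library sizes and were not tested. Shares were compared with exact permutation tests over mice. The fits were tested on simulated counts with 200 changed genes. Thick ascending limb cells had at least 5 UMIs of Slc12a1 and principal cells at least 5 of Aqp2, with under 3 thin limb markers and the other limits of the rule. Proximal tubule cells had over 1% of UMIs from the 4 proximal genes.

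Doublets were not removed in the main fit. An alternative took out the highest Scrublet scores (scanpy 1.11.5), 0.8% per 1000 barcodes. In droplet data the limits on other cells' genes also act against doublets. Other alternatives were DESeq2 1.42.0, other scalings and filters, fits without 1 mouse, a block for replicate number, and other cell rules.

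Named genes were the 15 rule genes, the 20 with the largest ratio to other cells at 50 CPM or more, the 12 largest rises and 12 largest falls at 20 CPM or more with no overlap, called members of the gene lists, and the 5 largest differences from thick ascending limb cells each way. Other genes named, those called under each of the 11 ways of choosing the cells, within subsets or for the motif among them, were chosen after their values were seen. The members and the 17 gene lists, with 11 lists of other cell types, were chosen with earlier results of these data known. Nothing says whether mice shared a litter or a day. Gene positions are from the GENCODE annotation of GRCm39. Some planned comparisons within the members are not reported here.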

Additional observations from a re-analysis of the deposited data

Results flagged for a closer look

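The change of thin limb cells differed from that of other tubule cells of the same mice in a direct test of the difference. Against thick ascending limb cells the log2 change in thin limb cells was higher for 371 genes and lower for 299, and against principal cells higher for 635 and lower for 652. The log2 differences from thick ascending limb cells named in the report were 4.97 for Kcnip4, 3.35 for Dock10, 2.79 for Acta2, 2.34 for Kcnma1 and 2.33 for Tagln, and -4.52 for Havcr1, -3.57 for Hk2, -3.16 for Tert, -3.09 for Gbp2 and -3.04 for Ankrd1. Against principal cells the differences of Kcnip4 (5.46), Dock10 (2.96), Acta2 (2.15), Hk2 (-1.94) and Gbp2 (-1.79) passed the edgeR test. Those of Kcnma1 (1.86, adjusted p = 0.0618), Tagln (2.25, 0.0796), Tert (-1.38, 0.0867), Ankrd1 (-1.74, 0.131) and Havcr1, whose sign turned (3.25, 0.199), did not. Marker-poor cells gave 79.8% of the Kcnip4, 73.5% of the Dock10, 73.0% of the Acta2 and 72.9% of the Tagln UMIs in DOCA-salt members, and their part in these differences was not tested beyond the marker-rich fit.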

How the results depend on the processing

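Numbers of genes called moved most with the choice of cells. The 307 rises and 92 falls became 747 and 261 without the filter on low counts, 500 and 254 with 2 markers, 75 and 30 with 4 markers, and 3 and 1 when the markers were counted after thinning to 1000 UMIs. That last choice kept 26 to 51 cells per mouse. Under alternatives added after seeing the data they were 49 and 19 for members with at least 0.2% marker UMIs, 45 and 18 with at least 0.5%, 828 and 247 without the limit on Ptprc, Pecam1 and Col1a1, 91 and 28 without it and with at least 0.2%, 127 and 40 without members carrying markers of other types, and 4 and 2, 2 and 6, and 61 and 20 in the Slc14a2, Fst and Epha7 subsets. Leaving out 1 mouse gave 146 to 365 rises and 21 to 188 falls, and 367 to 567 genes that differed from thick ascending limb cells, with 324 for at least 0.2% marker UMIs. DESeq2 called 345 and 104. Of 83 called genes followed, 42 kept their call without each mouse in turn and 41 lost it without at least 1.

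The numbers of the mice did not pair them. Same-numbered mice had correlations of deviations of -0.019, -0.196 and -0.136, and not every mouse correlated best with its own number. With the replicate block 261 genes rose and 48 fell, 39 and 15 in marker-rich members, and the share of members changed by -0.65 on the log2 scale (exact sign-flip test, p = 0.25, the smallest possible).

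The difference in the share of members with a UMI of Aqp1, -1.35 percentage points, was 1.94 without thinning, 3.75 for at least 0.2% marker UMIs, and -3.14 to 1.03 when 1 mouse was left out, positive without DOCA-salt mouse 3.

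Of the genes followed, 14 changed sign under 1 or more alternatives, none with a call. In the Fst subset the log2 changes were 0.47 for Slc39a8, -0.35 for Slc4a4, -0.10 for Kcnj15, 0.29 for Cldn8, -0.069 for Cxcl1, -0.26 for Bmp4, -0.34 for H2-Eb1, -0.033 for Mt2, -0.23 for Nox4, -0.11 for Stmn1 and -0.14 for Ccnd1. In the Slc14a2 subset they were 0.40 for Fxyd4, -0.25 for Bmp6 and -0.083 for Bmp4. With markers counted after thinning they were 0.28 for Wnt11, -0.028 for Kcnj15, -0.037 for Bmp6 and -0.043 for Nox4, and with at least 0.5% marker UMIs -0.045 for Bmp6. The cause was not tested.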
